A study of Homo sapiens with 8 samples.

Results

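The ceritinib response of the resistant lung adenocarcinoma lines H3122-LR2 and H3122-LR3 was read from 4 of the 8 arrays of the series, an untreated and a ceritinib array of each line. The rule takes arrays by line and treatment labels and uses no measured value. H3122 is a human lung adenocarcinoma cell line that carries the EML4-ALK fusion, and LR2 and LR3 are derivatives labelled as resistant to ceritinib. All cells were grown in RPMI with serum, treated cells received 1000 nM ceritinib for 6 h, and untreated cells received no agent per the labels. The sources used here do not state how the resistant lines were derived, whether each is a single clone, or whether they were kept in drug between passages. Parental H3122 cells with and without ceritinib, and LR2 cells after 6 h with 1000 nM crizotinib, served for comparison.

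EML4-ALK is a constitutively active receptor kinase that drives the RAS-ERK and PI3K-AKT pathways in the tumours that carry it. ERK activity maintains transcripts of its own inhibitors, such as the dual-specificity phosphatases and Sprouty proteins, and of immediate early genes, so these transcripts serve as a readout of pathway output. AKT keeps FOXO transcription factors out of the nucleus, and ALK inhibition in sensitive cells is known to lower the first set of transcripts and to raise FOXO targets. Ceritinib and crizotinib are ATP-competitive ALK inhibitors.

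Each condition had 1 array, so no difference within a line had a replicate. The test of a shared response takes its spread from the gap between LR2 and LR3, and the source of the spread is given beside the other tests. Nothing in the labels says that the arrays came from separate cultures. A gene was tested when the log2 signal of its brightest probe set exceeded 5.36, the midpoint of the values on these arrays, on 2 or more of the 4, which held for 10289 of 18132 named genes (56.7%). Array medians were 5.31 to 5.36, except for 5.46 in the LR2 ceritinib array, which stood apart. Differences are therefore given in log2 units after each treated array was centred on the median difference of all named genes, a shift of 0.09 for LR2 and 0.02 for LR3. Signals are printed as deposited. A difference that involves a signal under the floor is given as measured, and its size is uncertain. Of 9 lung epithelium markers 9 exceeded the floor in all 4 arrays, with summed log2 signals of 97.09 and 97.73 untreated and 97.32 to 97.92 with ceritinib. No fibroblast marker of 6 and 1 leukocyte marker of 5 (CD68, in 3 arrays) exceeded it in any array, and among endothelial markers VWF, CDH5 and KDR did while PECAM1 and CLDN5 did not. In bulk RNA a change in the mix of cells and a change in RNA per cell cannot be told apart.

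Ceritinib was followed by small differences in both resistant lines. Across genes the differences had a standard deviation of 0.16 in LR2 and 0.18 in LR3, against 0.32 in parental cells given the same dose and 0.30 in LR2 cells given crizotinib. No gene of 10289 was 2-fold higher in both lines (0%) and none was 2-fold lower in both (0%). In LR2 no gene was 2-fold higher (0%) and EGR1 alone was 2-fold lower (0.00972%). In LR3 the genes KLHL24, FBXO32 and HBP1 were 2-fold higher (0.0292%) and none was 2-fold lower (0%). In parental cells 48 genes were 2-fold higher (0.467%) and 96 were 2-fold lower (0.933%), and in LR2 cells given crizotinib 39 (0.379%) and 73 (0.709%) were. At 1.5-fold, LR2 had 15 genes higher (0.146%) and 22 lower (0.214%), and LR3 had 36 higher (0.35%) and 19 lower (0.185%), against 210 (2.04%) and 247 (2.4%) in LR2 with crizotinib.

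The test of a response shared by LR2 and LR3 called no gene at an adjusted p under 0.05 (limma with Benjamini-Hochberg adjustment over 10289 genes, 0%). The lowest adjusted p was 0.58, and 859 genes (8.35%) had an unadjusted p under 0.05, 525 of them higher (5.1%) and 334 lower (3.25%). This count depended on how probe sets were combined. With the mean of all probe sets of a gene in place of the brightest, an alternative planned with the main fit, limma called 77 of 8683 genes, 51 higher (0.587%) and 26 lower (0.299%), with a lowest adjusted p of 0.000497. The prior degrees of freedom of the fit, which set how far the spread of single genes is drawn to a common value, were 2.35 with the brightest probe set and 11.1 with the mean. Of the 77 called genes, 29 had 1 probe set, so averaging left their signals as they were. For these 29, only the centring, the set of genes tested and the spread drawn from other genes differed between the fits. All 77 genes had the same sign in both lines in the fit with the mean, which follows largely from a fit whose spread is the gap between the lines. For all 77 the mean of the lines had that sign with the brightest probe set too, but that probe set is part of the mean. Neither agreement is separate support for the calls. Genes said to pass in the probe-set mean fit are among these 77, and differences are from the brightest probe set unless stated. The smallest two-sided p that a sign-flip test over 2 pairs can give is 0.5.

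**Figure D1:**
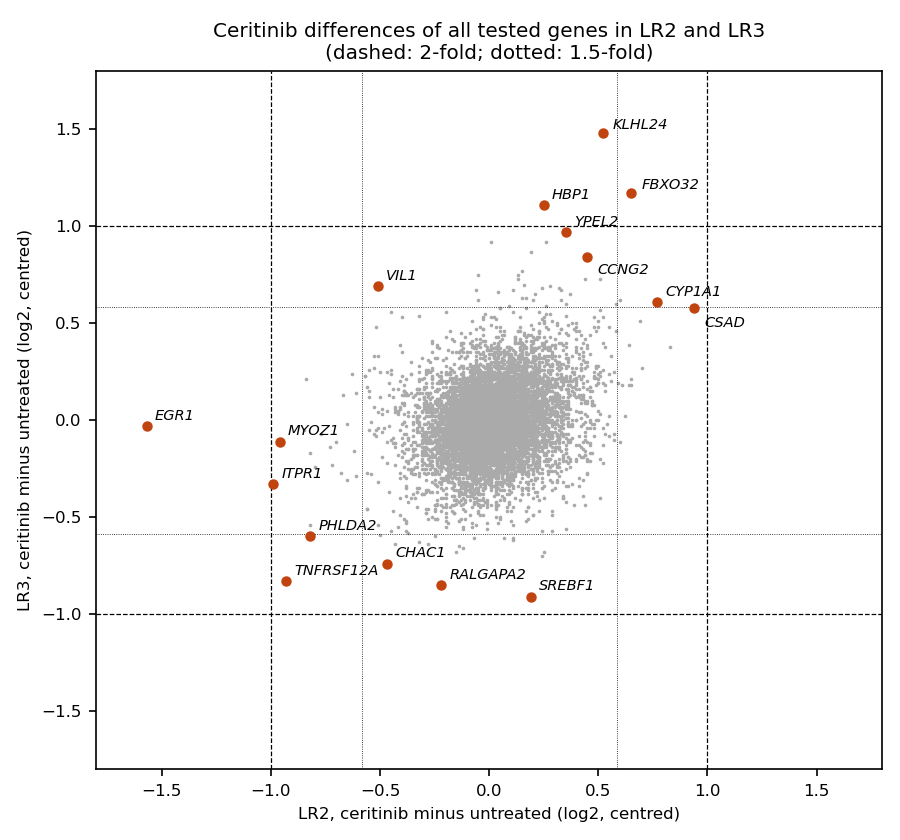
Each point is 1 of the 10289 tested genes, at its centred log2 difference between ceritinib and untreated cells in LR2 (horizontal axis) and LR3 (vertical axis). Dashed lines mark 2-fold and dotted lines 1.5-fold. EGR1 stands alone at the left at -1.57 in LR2 and -0.03 in LR3, and KLHL24, FBXO32 and HBP1 lie above the upper dashed line in LR3. The orange points are named genes chosen after their values were seen.

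The ERK output genes differed little in either resistant line. Of 30 tested members of this list, 25 were lower in LR2, where 46.8% of all genes were lower, and 18 were lower in LR3 (50.6%). In both lines 16 were lower, against 27.5% of all genes, and 2 were higher. The median difference was -0.17 in LR2 and -0.11 in LR3, against 0.01 and -0.01 over all tested genes, and -1.60 in parental cells. Without centring the medians were -0.08 and -0.10. Past 1.5-fold lower were 3 members in LR2, 1 in LR3 and 23 in parental cells, where 3.09% of all genes passed. In the probe-set mean fit 2 of 25 members passed, ERRFI1 and PHLDA2, both lower, where 0.299% of all genes were called lower.

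DUSP6, a phosphatase that inactivates ERK, had a signal of 11.79 in untreated and 11.51 in ceritinib-treated LR2 cells, and of 12.17 and 12.04 in LR3 cells. In parental cells the signal was 12.41 untreated and 7.39 with ceritinib, and in LR2 cells given crizotinib it was 7.26. The difference was -0.37 in LR2 and -0.15 in LR3, against -5.03 in parental cells, a 32.7-fold lower signal. The LR2 and LR3 ceritinib arrays thus lay near the untreated ones, while LR2 cells given crizotinib lay with treated parental cells. SPRY4, a Sprouty-family inhibitor of RAS-ERK signalling, went from 7.54 to 7.23 in LR2 and from 7.52 to 7.35 in LR3. Its differences were -0.40 and -0.19, against -3.00 in parental cells and -3.73 in LR2 with crizotinib. The signals behind the last pair, 4.08 and 3.81, lay under the floor, so these sizes are uncertain. ETV5, an ETS factor that follows ERK activity, differed by -0.16 in LR2 and -0.12 in LR3 (-1.65 in parental cells). Its relative ETV4 differed by -0.20 and 0.32. CCND1, which encodes the G1 cyclin D1, differed by -0.14 and -0.24 (-1.71 in parental cells), and MYC by 0.04 and -0.05 (-0.95). The mean of the 2 lines did not pass for any of these genes (limma, adjusted p from 0.58 for DUSP6 and SPRY4 to 0.982 for MYC).

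Members of the list with larger differences included PHLDA2, an imprinted pleckstrin-homology gene. Its signal went from 9.56 to 8.83 in LR2 and from 9.64 to 9.06 in LR3. The ceritinib array was the lower in both lines, by 1.77-fold and 1.52-fold, and the mean difference was -0.71 ± 0.09 (limma SE, n = 2 lines, adjusted p = 0.58, and 0.00339 in the probe-set mean fit). ERRFI1, a feedback inhibitor of EGF receptor family kinases, differed by -0.51 in LR2 and -0.54 in LR3, with a mean of -0.53 ± 0.06 (limma, adjusted p = 0.58, and 0.0141 in the probe-set mean fit). DUSP5 and PHLDA1 were lower mainly in LR2, at -0.70 and -0.82 against -0.11 and -0.17 in LR3. EPHA4, a receptor kinase for ephrins, was higher in LR3 by 0.46 and in LR2 by 0.07, against -1.97 in parental cells, where its treated signal of 4.87 lay under the floor.

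**Figure D2:**
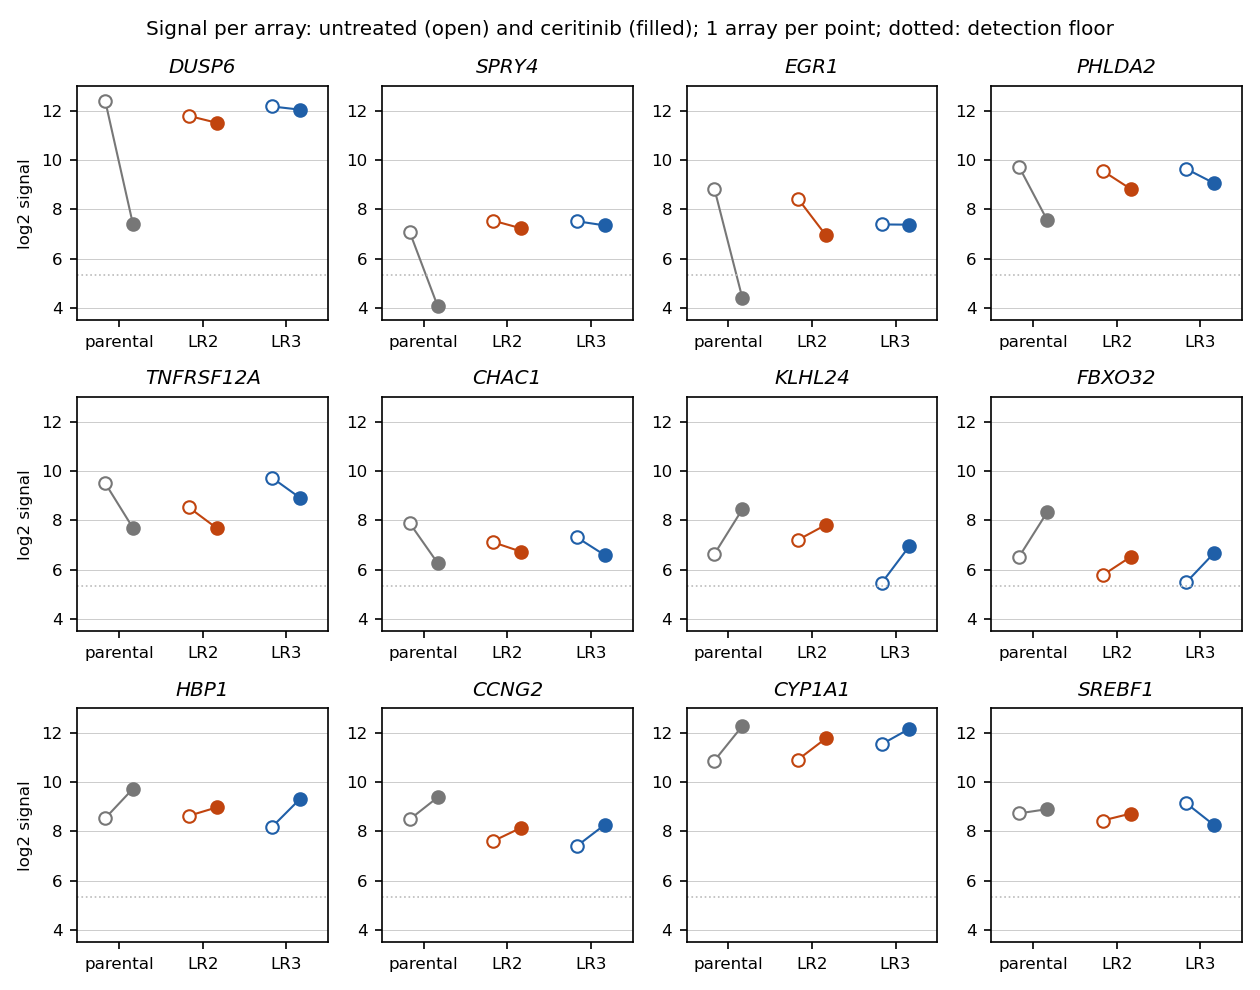
Log2 signals of 12 genes in untreated cells (open circles) and after 6 h with ceritinib (filled circles), with 1 array per point and lines joining the pair of a cell line (grey parental, orange LR2, blue LR3). The dotted line is the floor of 5.36. DUSP6 drops from 12.41 to 7.39 in parental cells and lies between 11.51 and 12.17 in the 4 resistant-line arrays, while FBXO32 is higher with ceritinib in all 3 lines.

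EGR1, an immediate early zinc finger factor induced through ERK and serum response factor, was the sole gene past 2-fold in LR2. Its promoter is shown because serum response elements in it are known to carry this induction. The sequence is the RefSeq promoter window (GRCh38.p14, chr5:138465229-138465528, plus strand), with the matches to the CArG box, the core that serum response factor binds, in capitals.
EGR1: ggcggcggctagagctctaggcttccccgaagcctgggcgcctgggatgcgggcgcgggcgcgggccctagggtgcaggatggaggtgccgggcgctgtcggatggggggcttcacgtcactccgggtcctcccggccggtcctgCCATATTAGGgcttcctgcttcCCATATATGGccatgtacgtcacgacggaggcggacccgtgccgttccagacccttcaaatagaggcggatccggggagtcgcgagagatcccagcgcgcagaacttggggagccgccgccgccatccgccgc
The window held 2 matches, starting 105 and 83 bases before the gene's start. A CArG box on either strand was present in 1.29% of 35116 promoter windows of this length and in 2 of the 18 immediate early genes with a window.

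The EGR1 signal was 8.43 in untreated LR2 cells and 6.95 with ceritinib, and 7.39 and 7.38 in LR3 cells. Untreated LR2 cells thus had the highest of the 4 signals, and the LR3 pair was nearly level. The difference was -1.57 in LR2, 2.97-fold lower, and -0.03 in LR3. It was -4.42 in parental cells and -3.32 in LR2 cells given crizotinib, where the treated signals of 4.41 and 5.11 lay under the floor and leave these sizes uncertain. The LR3 minus LR2 difference was 1.54, and each line had 1 pair. Of 6 EGR1 probe sets none had the opposite sign in LR2. With the mean of its probe sets EGR1 lay under the floor and was not tested. Of 22 immediate early genes tested, 20 were lower in LR2 (46.8% of all genes) and 13 in LR3 (50.6%), and 11 were lower in both (27.5%). The LR3 count was near the share over all genes. None was higher in both. The medians were -0.16 and -0.03, and -0.07 and -0.01 without centring. JUNB, an AP-1 subunit, differed by -0.53 in LR2 and 0.07 in LR3, and CCN2, a matricellular growth factor gene, by -0.65 and -0.02. ATF3, a stress-induced factor, differed by -0.38 and -0.30. NR4A1, an orphan nuclear receptor, differed by -0.27 and -0.37, but 5 of its 7 probe sets, 4 of them above the floor, had the opposite sign in LR2.

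At 1.5-fold, 25 genes (0.243%) passed in LR2 with less than 0.3 in that direction in LR3, 8 higher and 17 lower. NAB2, a corepressor of EGR1 that EGR1 itself induces, was among the lower genes, with signals of 6.57 and 5.81 in LR2 and 5.99 and 5.96 in LR3. SHISA2, at -0.72 in LR2 and -0.23 in LR3, and AMIGO2, at -0.68 and -0.27, also had large differences in parental cells (-3.46 and -2.00), with SHISA2 under the floor there at 4.94. EGR1, PHLDA1, DUSP5, CCN2 and FOXQ1 of this group were lower in parental cells as well. Some others, JUP and MYOZ1 among them, had no like difference in parental cells. JUP, which encodes the junctional protein plakoglobin, differed by -0.77 in LR2, -0.07 in LR3 and 0.01 in parental cells. MYOZ1 differed by -0.96, -0.11 and -0.06 and was under the floor in the LR2 ceritinib array, at 4.73. The higher genes were led by CCDC9B (0.70 in LR2, 0.27 in LR3) and by DMXL2 and PRR15L (both 0.65, against 0.21 and 0.18 in LR3). PRR15L was 4.26-fold higher in parental cells.

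FOXO targets and PI3K feedback genes were more often higher than lower in both lines. Of 23 tested members, 16 were higher in LR2 (50.1% of all genes) and 16 in LR3 (46.5%), and 14 were higher in both, where 27.2% of all genes were. The medians were 0.26 in LR2, 0.15 in LR3 and 0.52 in parental cells. Past 1.5-fold higher were 1 member in LR2 and 5 in LR3, against 9 in parental cells (2.45% of all genes). In the probe-set mean fit 4 of 20 members passed, FBXO32, KLHL24, HBP1 and YPEL3, all higher, where 0.587% of all genes were called higher.

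The genes with the largest differences in LR3 came from this list. KLHL24, an adaptor of a cullin ubiquitin ligase, had signals of 7.21 and 7.82 in LR2 and of 5.46 and 6.96 in LR3, untreated and with ceritinib. The ceritinib array was the higher in each line, by 1.43-fold in LR2 and 2.79-fold in LR3, and by 3.48-fold in parental cells. The differences were 0.52 and 1.48, and their mean had a limma SE of 0.27 (n = 2 lines, adjusted p = 0.58, and 0.0241 in the probe-set mean fit). FBXO32, which encodes the ubiquitin ligase component atrogin-1, went from 5.78 to 6.52 in LR2 and from 5.49 to 6.68 in LR3. Both ceritinib arrays exceeded both untreated ones, and the mean difference was 0.91 ± 0.15 (limma, adjusted p = 0.58, and 0.00339 in the probe-set mean fit). HBP1, a transcriptional repressor that restrains G1 progression, went from 8.63 to 8.97 in LR2 and from 8.19 to 9.32 in LR3. Its difference was 0.25 in LR2 and 1.11 in LR3, where it was near the 1.19 of parental cells, and the mean passed in the probe-set mean fit (limma, adjusted p = 0.035). It was the sole gene past 2-fold in LR3 with under 0.3 in LR2, where the mean of its probe sets differed by 0.31. Just outside 2-fold were YPEL2 in LR3 (0.97) and ITPR1, MYOZ1 and CSAD in LR2 (-0.99, -0.96 and 0.94). Untreated CSAD signals lay under the floor, at 4.77 in LR2 and 4.86 in LR3. In LR2, 2 of the 3 CSAD probe sets had the opposite sign.

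The HBP1 promoter is given as the example of this list whose window holds the FOXO element GTAAACA, searched on both strands and shown in capitals (RefSeq, GRCh38.p14, chr7:107168753-107169052, plus strand).
HBP1: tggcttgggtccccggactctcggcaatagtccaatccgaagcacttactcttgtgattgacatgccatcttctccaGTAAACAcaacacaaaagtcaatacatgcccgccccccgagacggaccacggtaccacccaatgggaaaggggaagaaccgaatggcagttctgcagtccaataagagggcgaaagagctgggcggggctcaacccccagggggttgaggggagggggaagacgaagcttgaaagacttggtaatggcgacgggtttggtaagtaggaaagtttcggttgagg
The match begins 173 bases before the gene's start. The element was found in 3.42% of 35116 windows and in 5 of the 19 list members with a window, which were HBP1, YPEL3, BCL2L11, TXNIP and FOXO4. The KLHL24 window did not hold these letters. FBXO32, also a tested member, was not among the 5, and whether it had a window is not given here.

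Other FOXO-list members had smaller differences of the same sign. CCNG2, an atypical cyclin that slows the cell cycle, was higher by 0.45 in LR2 and 0.84 in LR3, and YPEL3, linked to senescence, by 0.13 and 0.75. FOXO3 itself was higher by 0.35 and 0.32, and the receptor gene ERBB3 by 0.28 and 0.24. CDKN1B, which encodes the CDK inhibitor p27, differed by 0.35 in LR2 and 0.08 in LR3. TXNIP, a thioredoxin-binding protein gene that responds to glucose, went the other way, at -0.52 and -0.05, and the stress-responsive SESN2 at -0.28 and -0.64.

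Among 14 tested BCL2 family genes, 5 were higher and 5 lower in both lines, near the shares of 27.2% and 27.5% over all genes. BMF, a BH3-only death activator, went from 7.19 to 7.72 in LR2 and from 7.07 to 7.82 in LR3, a difference of 0.44 and 0.73, although 2 of its 4 probe sets, both above the floor, had the opposite sign in LR2. BBC3, which encodes PUMA, went from 6.95 to 7.59 and from 7.13 to 7.63, with a mean of 0.52 ± 0.06 (limma SE, n = 2 lines, adjusted p = 0.58). In both genes each ceritinib array exceeded both untreated arrays. BCL2L11, the gene of BIM, differed by 0.26 in LR2 and 0.09 in LR3, against 0.77 in parental cells. PMAIP1, the gene of NOXA, was lower by 1.28-fold and 1.21-fold and passed in the probe-set mean fit (limma, adjusted p = 0.0431).

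In LR3 35 genes (0.34%) passed 1.5-fold with less than 0.3 in that direction in LR2, 22 higher and 13 lower. The higher genes included HBP1 and YPEL3. With the mean of their probe sets HBP1 differed by 1.07 in LR3 and 0.31 in LR2, and YPEL3 by 0.55 and 0.30. Neither met this rule with the mean, and both passed as shared responses in that fit (limma, adjusted p = 0.035 and 0.0351). MYB, a haematopoietic and epithelial progenitor factor, was also among the higher genes, with signals of 5.08 and 5.97 in LR3 and 6.61 and 6.89 in LR2. With the mean of its probe sets MYB differed by 0.59 in LR3 and 0.29 in LR2. It passed as a shared response in that fit (limma, adjusted p = 0.0352). BCL11A, a zinc finger repressor, went from 5.32 to 6.26 in LR3 and from 7.09 to 7.44 in LR2. Of 8 BCL11A probe sets, 4 had the opposite sign in LR2, 1 of them above the floor, and 2 in LR3. For MYB and BCL11A the untreated LR3 array was under the floor and the lowest of the 4. The differences in LR3 were 0.87 for MYB and 0.92 for BCL11A, close to the 0.94 and 1.03 of parental cells. The lower genes included RALGAPA2, a GTPase activator of Ral proteins, at -0.85 in LR3, -0.22 in LR2 and 0.06 in parental cells. Of its 2 probe sets, the other 1, not above the floor, had the opposite sign in both resistant lines. The chromatin methyltransferase gene NSD1 differed by -0.68 in LR3 and 0.25 in LR2, and the kinase gene TAOK1 by -0.70 and 0.24. However, 1 of the 2 TAOK1 probe sets had the opposite sign in LR2. Of 8 NSD1 probe sets, 3 had the opposite sign in LR2 and 2 in LR3.

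SREBF1, the gene of the lipid-synthesis regulator SREBP1, had the lowest difference in LR3. Its signal went from 9.14 to 8.25 in LR3 and from 8.44 to 8.72 in LR2, a difference of -0.91 and 0.19. This rests on 1 probe set, since an equally bright one differed by -0.13 in LR3 and 0.06 in LR2. Of 25 genes of cholesterol and fatty acid synthesis, 24 were lower in LR3 (50.6% of all genes) and 15 in LR2 (46.8%), with medians of -0.18 and -0.04. In LR2 the median was 0.05 without centring. In LR3 IDI1 differed by -0.56, MSMO1 by -0.50 and HMGCS1, the sterol-regulated synthase of the mevalonate pathway, by -0.49. The same genes differed by -0.12, -0.26 and -0.03 in LR2 and by -0.82, -0.98 and -0.67 in parental cells. No member of this list passed in either fit.

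The test of LR3 minus LR2 called no gene in the planned fit over all 8 arrays (limma, lowest adjusted p = 0.971, 438 genes or 4.26% at an unadjusted p under 0.05). That fit took crizotinib and ceritinib as 1 condition, so its spread is the gap between the inhibitors in LR2 and in parental cells, and the LR2 crizotinib array differed far more than the LR2 ceritinib array. With the LR2 crizotinib array as a condition of its own, the contrast compared 1 ceritinib pair of each line, and the gap between the parental crizotinib and ceritinib arrays supplied the spread. The lowest adjusted p was then 0.745, with 532 genes (5.17%) at an unadjusted p under 0.05. Neither fit measures variation between cultures of LR2 or LR3, so differences between these lines are given as values only.

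At 1.5-fold in both lines stood 5 genes. FBXO32, CYP1A1 and HOXB3 were higher (0.0292%), and TNFRSF12A and PHLDA2 lower (0.0194%). They are named after their values were seen. TNFRSF12A, the gene of the TWEAK receptor FN14, had signals of 8.53 and 7.69 in LR2 and of 9.72 and 8.91 in LR3. The ceritinib array was the lower in each line by nearly the same amount, 1.91-fold and 1.78-fold, against 3.56-fold in parental cells. Its mean of -0.88 ± 0.07 (limma SE, n = 2 lines) had the lowest adjusted p of the probe-set mean fit, 0.000497. HOXB3 was higher by 0.60 and 0.62, but both LR3 signals lay under the floor, at 4.05 and 4.69. CXCL8, the neutrophil chemokine interleukin-8, came close, with signals of 8.53 and 7.80 in LR2 and of 9.76 and 9.24 in LR3. It was 1.77-fold and 1.45-fold lower, against 18.9-fold in parental cells, and passed in the probe-set mean fit (limma, adjusted p = 0.0117). PTGS2, the inducible cyclooxygenase, and PLK2, a polo-like kinase, each differed by -0.56 in LR2 and -0.46 in LR3.

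CYP1A1, a monooxygenase induced through the aryl hydrocarbon receptor, was the brightest of these genes. Its promoter window (RefSeq, GRCh38.p14, chr15:74725479-74725778, minus strand) is shown with the receptor's core motif GCGTG in capitals, searched on both strands.
CYP1A1: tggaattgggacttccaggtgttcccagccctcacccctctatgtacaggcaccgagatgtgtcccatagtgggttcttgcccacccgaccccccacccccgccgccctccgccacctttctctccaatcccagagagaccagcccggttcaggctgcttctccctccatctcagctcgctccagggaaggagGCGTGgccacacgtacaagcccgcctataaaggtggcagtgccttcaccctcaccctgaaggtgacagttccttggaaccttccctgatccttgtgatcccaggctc
The window held 1 match, 57 bases before the gene's start. This short core was present in 36.5% of all windows and in 4 of the 5 list members with a window.

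CYP1A1 went from 10.91 to 11.77 in LR2 and from 11.53 to 12.16 in LR3, and both ceritinib arrays exceeded both untreated ones. The differences were 0.77 and 0.61, against 1.39 in parental cells and 1.66 in LR2 with crizotinib, and the mean was 0.69 ± 0.08 (limma SE, n = 2 lines, adjusted p = 0.58, and 0.00216 in the probe-set mean fit). Of 7 tested targets of the receptor 5 were higher in both lines (27.2% of all genes), with medians of 0.22 and 0.21. TIPARP, an inducible ADP-ribosyltransferase that represses the receptor, was higher by 0.25 and 0.53 in the resistant lines and by 0.03 in parental cells, and passed in the probe-set mean fit (limma, adjusted p = 0.0485). AHRR, the receptor's repressor, was higher by 0.47 and 0.15. CYP1A2 went opposite ways, at -0.57 and 0.23, but 1 of its 2 probe sets, not above the floor, had the opposite sign in each line.

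Stress and biosynthesis genes were more often lower than higher in both lines. Of 28 ATF4 and unfolded protein response genes, 20 were lower in both lines and none higher in both, where 27.5% of all genes were lower and 27.2% higher in both. The medians were -0.08 in LR2, -0.16 in LR3 and -0.36 in parental cells. In LR2 this median was 0.00 without centring. CHAC1, a glutathione-degrading enzyme gene and a direct ATF4 target, went from 7.11 to 6.73 in LR2 and from 7.31 to 6.59 in LR3. Its mean of -0.60 ± 0.10 (limma SE, n = 2 lines) passed in the probe-set mean fit (adjusted p = 0.0241). TRIB3, a pseudokinase induced by ATF4, differed by -0.50 and -0.59 and passed there as well (limma, adjusted p = 0.0241). DDIT4, an inhibitor of mTORC1, differed by -0.68 in LR3 and -0.15 in LR2. The chaperone gene HSPA5, which marks endoplasmic reticulum stress, differed by -0.43 in LR3 and -0.07 in LR2.

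The CHAC1 window (RefSeq, GRCh38.p14, chr15:40953221-40953520, plus strand) holds the ATF4-type composite element TGATGNAA, searched on both strands and found here on the minus strand.
CHAC1: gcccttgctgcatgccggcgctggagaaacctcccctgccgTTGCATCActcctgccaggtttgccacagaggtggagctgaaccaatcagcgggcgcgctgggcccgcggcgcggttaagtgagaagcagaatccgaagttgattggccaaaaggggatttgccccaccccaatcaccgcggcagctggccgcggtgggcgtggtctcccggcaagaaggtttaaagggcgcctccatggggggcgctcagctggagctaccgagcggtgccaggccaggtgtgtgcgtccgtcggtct
The match, in capitals, begins 209 bases before the gene's start. The element was present in 3.62% of all windows and in 6 of the 26 list members with a window. The TRIB3 window (chr20:381045-381344, plus strand) did not hold it. That window lies downstream of the annotated gene start at 380760, so the sequence before that start was not searched.

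Of 16 heat shock chaperone genes 13 were lower in both lines (27.5% of all genes) and none was higher in both. The medians were -0.17 in LR2 and -0.18 in LR3, and -0.08 and -0.16 without centring. HSPH1, a nucleotide exchange factor of the HSP70 system, differed by -0.38 and -0.57, and the co-chaperone gene DNAJB1 by -0.38 and -0.39. Both passed in the probe-set mean fit (limma, adjusted p = 0.0461 and 0.0423). Of 37 MYC targets and ribosome biogenesis genes 28 were lower in both lines (27.5% of all genes) and 1 was higher. The medians were -0.12 in LR2, -0.24 in LR3 and -0.43 in parental cells, and without centring -0.03 in LR2 and -0.22 in LR3. RRS1, a ribosome assembly regulator, differed by -0.46 and -0.37 and passed in the probe-set mean fit (limma, adjusted p = 0.0267). NOP16, a nucleolar protein gene, differed by -0.37 and -0.42. WDR43 and POLR1B, which act in ribosomal RNA synthesis, were lower in LR3, at -0.65 and -0.61, with -0.14 and -0.07 in LR2. MYC itself differed by at most 0.05 in either line.

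Of 37 mitotic genes 21 were higher in both lines (27.2% of all genes) and 1 was lower in both. The medians were 0.13 in LR2, 0.08 in LR3 and 0.36 in parental cells, and without centring 0.22 in LR2 and 0.10 in LR3. ASPM, a spindle pole protein gene, went from 7.93 to 8.50 in LR2 and from 7.59 to 8.14 in LR3, and CDC25C, the phosphatase that activates CDK1, from 7.71 to 8.18 and from 7.33 to 7.85. For both genes each ceritinib array exceeded both untreated ones. ASPM, CDC25C and the spindle gene PSRC1 passed in the probe-set mean fit (limma, adjusted p = 0.0352, 0.0241 and 0.0248). MKI67, the proliferation marker, went opposite ways, at 0.24 and -0.30, with 3 of its 6 probe sets of the other sign in LR3. G1/S and replication genes had medians of 0.00 and -0.04 over 37 members.

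None of 14 tested receptor kinase and ligand genes, the drug target ALK among them, passed 1.5-fold in either line. ALK differed by -0.01 in LR2 and -0.03 in LR3, and EML4 by 0.07 and -0.07, although these probe sets do not separate the fusion from the unfused transcripts. FGFR3 went from 7.65 to 7.96 in LR2 and from 8.48 to 8.70 in LR3, a mean of 0.21 ± 0.06 (limma SE, n = 2 lines, adjusted p = 0.58), but its other probe set went the other way in LR2. MET, IGF1R and ERBB2 differed by 0.04, 0.44 and 0.18 in LR2 and by -0.10, -0.16 and 0.19 in LR3. The IGF1R value in LR2 lay beyond 0.29, the 95th percentile of all genes in that line. In LR3 the opposite sign was seen in 3 of 6 MET, 2 of 7 IGF1R and 2 of 5 ERBB2 probe sets. In LR2 it was seen in 2 MET and 2 ERBB2 probe sets and in no IGF1R probe set. NKX2-1, the lineage factor of lung adenocarcinoma, went from 10.46 to 11.01 and from 10.38 to 10.84. Its differences were 0.46 and 0.44, against 0.60 in parental cells, and it passed in the probe-set mean fit (limma, adjusted p = 0.0287).

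**Figure D3:**
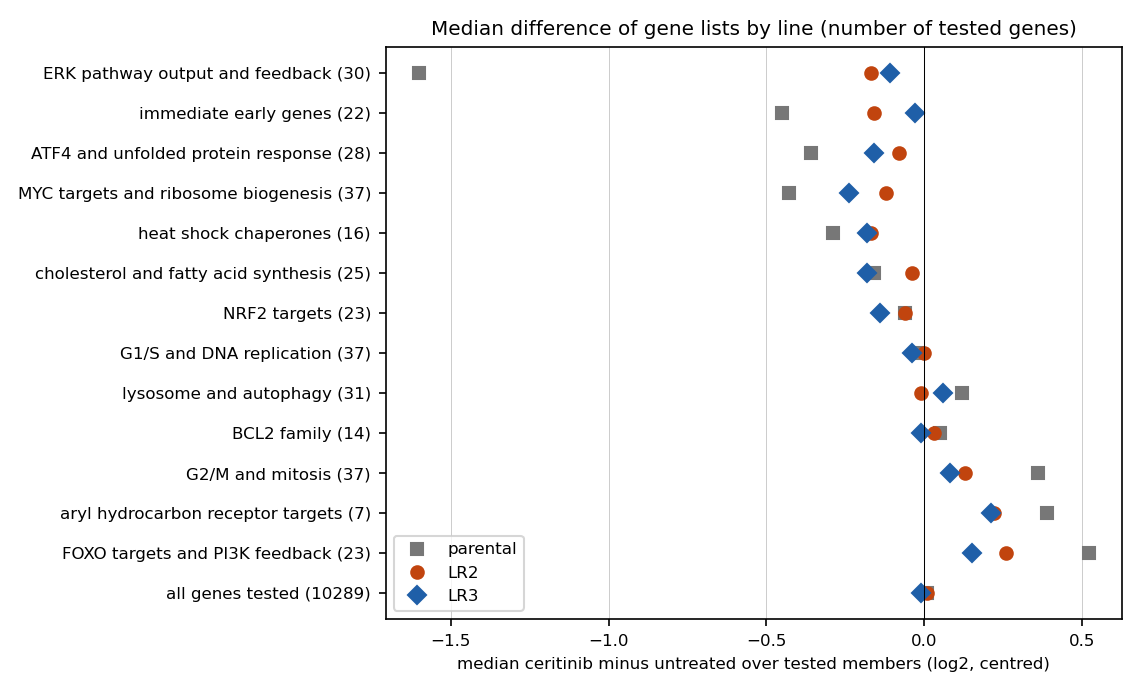
Median centred log2 difference between ceritinib and untreated cells over the tested members of 13 gene lists and over all tested genes, in parental cells (squares), LR2 (circles) and LR3 (diamonds), with the number of tested genes in brackets. The ERK output list lies at -1.60 in parental cells and at -0.17 and -0.11 in LR2 and LR3. The lists were chosen with earlier results of these data known.

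The resistant lines were next compared with parental cells over genes chosen on parental arrays alone, those past 2-fold the same way with both ceritinib and crizotinib. Since the same parental arrays chose the genes, their parental values are high by that choice. Of 71 genes lower in parental cells, 66 were lower in LR2 (46.8% of all genes) and 54 in LR3 (50.6%). The median difference was -0.36 in LR2 and -0.15 in LR3, a median of 21.9% and 7.27% of the parental difference on the log2 scale. In LR2 cells given crizotinib all 71 were lower, with a median of 90.1%. Of 30 genes higher in parental cells, 30 were higher in LR2 (50.1%) and 27 in LR3 (46.5%), with medians of 0.35 and 0.30, or 26% and 25.4% of the parental difference. LR2 lay nearer to parental cells than LR3 for 53 of the 71 lower genes and for 16 of the 30 higher genes. The LR2 ceritinib and crizotinib responses share the untreated LR2 array.

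**Figure D4:**
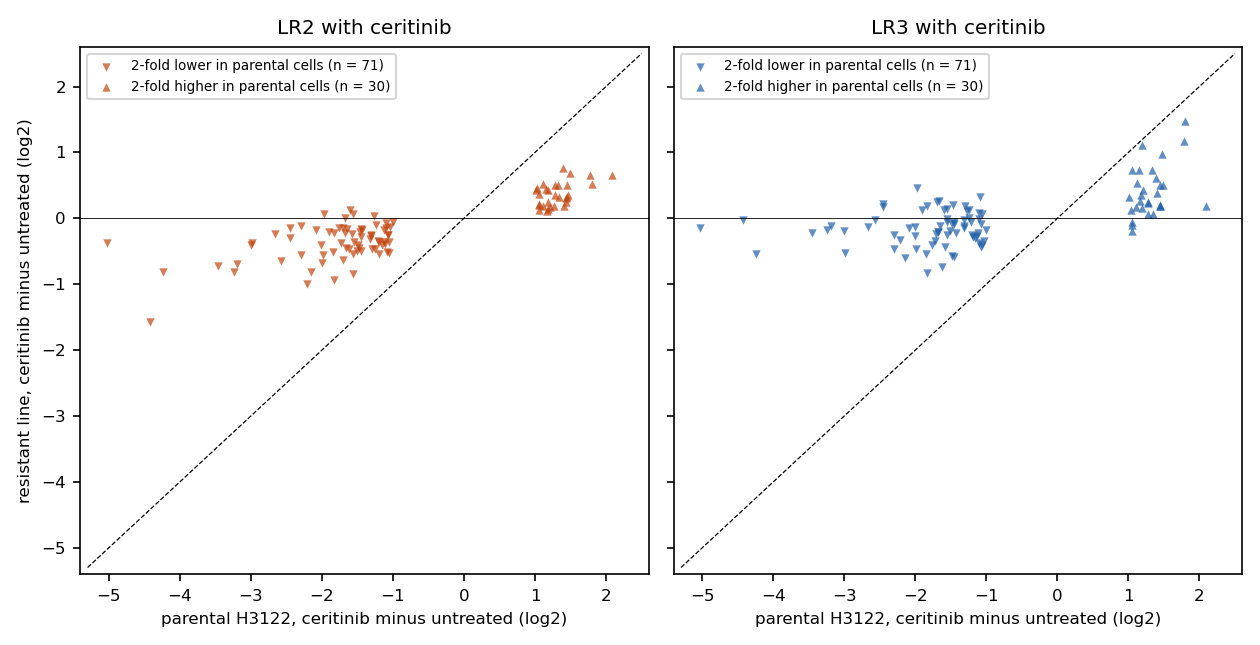
Each triangle is a gene chosen for being 2-fold lower (71 genes) or higher (30 genes) with both inhibitors in parental cells, at its centred log2 ceritinib difference in parental cells (horizontal axis) and in LR2 (left) or LR3 (right, vertical axes). On the dashed diagonal both lines would differ equally. The genes lower in parental cells lie above the diagonal in both resistant lines, with medians of -0.36 in LR2 and -0.15 in LR3.

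The test of the difference between resistant and parental responses called no gene in the planned fit, which took both inhibitors together (limma, lowest adjusted p = 0.948, 499 genes or 4.85% at an unadjusted p under 0.05). With ceritinib arrays alone it also called none, at a lowest adjusted p of 0.283 and with 867 genes (8.43%) at an unadjusted p under 0.05. DUSP6 had that lowest value, with a resistant minus parental difference of 4.77 ± 0.15 (limma SE, n = 3 pairs). For CXCL8 the difference was 3.56 ± 0.17 (limma, adjusted p = 0.322). For the FOXO targets KLHL24, FBXO32 and HBP1 it was -0.80 ± 0.47, -0.87 ± 0.27 and -0.51 ± 0.42 (limma, adjusted p = 0.721, 0.582 and 0.787). With 1 parental pair the tests on ceritinib arrays alone take the spread between LR2 and LR3 as the spread of all lines.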

How the data were processed

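RNA of 8 samples, 1 per condition, was measured on single-colour expression arrays. The authors deposited log2 probe set signals made by RMA, per the submitters' processing notes. The sources used here name neither the software and its version nor the arrays that were normalized as a set. The 4 arrays of LR2 and LR3 without crizotinib were analysed here, with the other 4 for comparison. Of 49395 probe sets, 44988 non-control ones had 1 gene symbol, 1832 had several and 2569 had none in the platform's table. A gene was represented by its brightest probe set on average. Treated arrays were centred on the median difference to their untreated array over 18132 genes.

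The shared response used limma with terms for line and ceritinib (1 residual degree of freedom). LR3 minus LR2, and resistant minus parental, used all 8 arrays (2 residual degrees of freedom each). The number of arrays limits precision. Scripts were tested on simulated data. The members, the 29 gene lists and the rule for named genes were chosen with earlier results of these data known. That rule took the largest called genes, the 8 largest of each direction in 1 line only, up to 5 members of each list, and a fixed set including ALK, FGFR3, DUSP6 and EGR1; since no gene was called, genes with the largest mean differences are named after their values were seen, and the text names fewer than the rule allows. IRS2 of the fixed set was not among the tested genes. Alternatives were no centring, centring on tested genes, quantile normalization, other probe set choices, other floors, other folds and leaving out arrays. limma 3.58.1 in R 4.3.3 and matplotlib 3.10.9 in Python 3.11.15 were used. Promoter windows and symbols came from RefSeq tables (GRCh38.p14).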

Additional observations from a re-analysis of the deposited data

Results flagged for a closer look

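For 6 genes LR2 and LR3 differed with ceritinib in opposite directions by at least 0.4 on the log2 scale. VIL1, which encodes the microvillus protein villin, differed by -0.51 in LR2 and 0.69 in LR3, with LR2 signals of 4.37 and 3.95, under the floor. PLAT, tissue plasminogen activator, differed by -0.45 in LR2 and 0.56 in LR3, where its untreated signal of 5.33 lay under the floor. PLCB2, a phospholipase C, differed by -0.52 and 0.48. EVA1B differed by -0.40 and 0.53, with its LR2 ceritinib signal of 5.31 under the floor. The zinc finger gene ZNF462 differed by 0.51 in LR2 and -0.40 in LR3, where both signals, 5.27 and 4.89, lay under the floor. DNAJC13, an endosomal co-chaperone gene, differed by 0.44 and -0.44. The opposite sign was seen in 2 of 3 VIL1 probe sets in LR2, 2 of 7 PLAT probe sets in LR3 and 1 of 4 PLCB2 probe sets in each line. None of these probe sets lay above the floor. Each value rests on 1 pair of arrays, and the difference between the lines was not tested against any spread within LR2 or LR3.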

How the results depend on the processing

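Of 12 alternative settings for the shared response, 11 called no gene, as did the reported one, and the mean of all probe sets called 77. LR3 minus LR2 gave 0 calls in 14 settings (limma, lowest adjusted p 0.745 to 0.997) and resistant minus parental in 16 (0.283 to 0.999), in fits whose few arrays say nothing about stability. Leaving out arrays gave 0 to 0 calls. The count of genes past 2-fold in LR2 only was 0 with the mean of all probe sets and with probe sets without a cross-match suffix, where EGR1 was not among the genes tested, and 4 with no filter on dim genes. The count in LR3 only was 0 in the first 2 of these settings and with no centring. At 1.5-fold the counts were 5 in both lines, 25 in LR2 only and 35 in LR3 only, and at 3-fold both single-line counts were 0. Without centring the mean of SPRY1 became 0.04, that of ALK 0.03 and the LR2 median of the cholesterol list 0.05. With the mean of all probe sets SPRY1 became 0.06 and the YPEL3 difference between the lines -0.04. LIF became 0.07 with probe sets without a suffix. With all 8 arrays, where crizotinib counts with ceritinib, SPRY2 became -0.08 and ETV4 -0.01. The cause was not tested. Over the named genes, 1245 values kept direction and side of the threshold, 27 passed it and 7 reversed, and of the list medians 57 kept their value, 28 moved and 1 reversed. A fit in 7 cells and the list medians were added after seeing the data. The shared-response fit pairs each treated array with the untreated one of its line, and without the term for line it called 0 genes. With 1 array per condition, differences near the floor of 5.36 are least certain.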

Other observations

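FOSL2, an AP-1 subunit, went from 8.05 to 8.83 in LR2 and from 7.55 to 8.08 in LR3, 1.61-fold and 1.42-fold, against a log2 difference of 1.49 in parental cells. KDM3A, a histone demethylase gene, differed by 0.44 and 0.42, and OVOL2, an epithelial zinc finger factor, by 0.43 and 0.35. All 3 passed in the probe-set mean fit (limma, adjusted p = 0.0185, 0.0241 and 0.0241). BHLHE40, a clock-linked repressor, differed by -0.45 in LR2 and -0.57 in LR3 and passed there as well (adjusted p = 0.0185). PPP3R1, the regulatory subunit of calcineurin, differed by -0.43 and -0.64, and ITPR1, an intracellular calcium channel, by -0.99 and -0.33. Both passed in the probe-set mean fit alone (limma, adjusted p = 0.0258 and 0.0241), where ITPR1 differed by -0.48 in LR2 and -0.38 in LR3. These genes were named after their values were seen.

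Of 23 tested NRF2 targets, 13 were lower in both lines (27.5% of all genes) and 2 higher (27.2%), with medians of -0.06 in LR2 and -0.14 in LR3. The LR2 median was smaller in size than the shift of 0.09 applied to that array, so its sign depended on the centring. SRXN1, sulfiredoxin, differed by -0.44 and -0.47 and passed in the probe-set mean fit (limma, adjusted p = 0.0241), while NQO1 differed by -0.08 and -0.07. Of 31 lysosome and autophagy genes 10 were higher and 10 lower in both lines, near the shares over all genes. ULK1, the kinase that starts autophagy, differed by 0.50 and 0.28 and passed in the probe-set mean fit (limma, adjusted p = 0.0431).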
